A study of Mus musculus with 3 samples.

Results

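The 10 genes described here belong to the ATF4 amino-acid stress response and were followed across 3 single-colour oligonucleotide arrays of mouse mesenchymal progenitors in culture, the bone marrow stromal cells that form fibroblast colonies. The members were 10 genes chosen by name out of 17097 named genes: Atf4, Atf3, Ddit3, Trib3, Asns, Chac1, Psat1, Phgdh, Shmt2 and Slc7a11. All 10 had at least 1 probe set annotated to that gene alone, and 15 probe sets measured them. Where a gene had several, the probe set with the highest mean log2 intensity over the 3 arrays stood for it, and the others are given beside it.

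The arrays held cells given shRNA against HIF-2a, cells given shRNA against HIF-1a and cells given a control shRNA, with 1 array each. HIF-1a and HIF-2a are subunits of transcription factors that build up when oxygen is low. All cells were PaS+ progenitors sorted from adult bone marrow of mice aged 8 weeks, of a strain the labels spell C56Bl/6. All were kept in MesenCult medium for 7 days in 1% oxygen and transduced overnight with lentiviral vectors, and RNA was collected 4 days after transduction, so the control cells carried a vector and low oxygen as well. The labels do not say how many mice were pooled, which sequences the hairpins had, or whether transduced cells were selected. With 1 array per shRNA there was no spread between samples, so no difference below was tested and no p-value is given.

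ATF4 is the transcription factor whose translation rises when any of several kinases phosphorylates the translation factor eIF2α, for example when amino acids run short or unfolded proteins gather in the endoplasmic reticulum. It pairs with other leucine zipper proteins on amino acid response elements and switches on genes for amino acid synthesis, amino acid uptake, tRNA charging and glutathione precursors, along with feedback and death-promoting genes. Because ATF4 is controlled largely at translation, its own mRNA and the mRNAs of its targets need not move together.

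The response element can be looked for in the sequence of these genes. They were chosen by name as genes of the ATF4 response, so finding its element is not independent of that choice. The core searched was TGATGNAA, on both strands, in the RefSeq promoter windows of assembly GRCm38.p6, each reaching from 250 bases before to 50 bases after an annotated gene start. All 10 genes matched a window, and Psat1 had a pair of them. The core was found for 5 of the 10 genes, Atf3, Trib3, Asns, Chac1 and Slc7a11, whereas 3.97% of all 32851 windows held it. The stricter form TGATGCAA was found for Atf3, Chac1 and Slc7a11, against 0.895% of all windows. The members are counted by gene, over 11 windows, whereas the percentages are shares of windows, so the units differ. The cyclic AMP response element TGACGTCA, which no match to the core can satisfy as well, was in none of the members' windows and in 1.79% of all windows.

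The stretches around the upstream elements are shown because these 4 genes carry the element before their start. Each is written 5′ to 3′ on the strand of the gene, with the element core in capitals. They lie at chr1:191183406-191183473 (minus strand) for Atf3, chr6:7693210-7693262 (minus strand) for Asns, chr2:119351019-119351086 (plus strand) for Chac1 and chr3:50443623-50443709 (minus strand) for Slc7a11.
Atf3: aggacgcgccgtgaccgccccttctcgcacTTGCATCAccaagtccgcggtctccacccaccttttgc
Asns: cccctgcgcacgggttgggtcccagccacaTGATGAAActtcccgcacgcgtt
Chac1: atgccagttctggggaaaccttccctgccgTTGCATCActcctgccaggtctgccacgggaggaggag
Slc7a11: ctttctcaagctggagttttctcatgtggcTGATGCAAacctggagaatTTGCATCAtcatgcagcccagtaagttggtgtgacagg

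The element began 110 bases upstream of the start in Atf3, 23 bases upstream in Asns and 193 bases upstream in Chac1. Slc7a11 held 2 copies facing each other, which began 66 and 47 bases upstream. The single match of Trib3, TTACATCA, lay past its start, at bases 15 to 22. A match describes these letters in this window and does not show that a factor bound there.

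**Figure D1:**
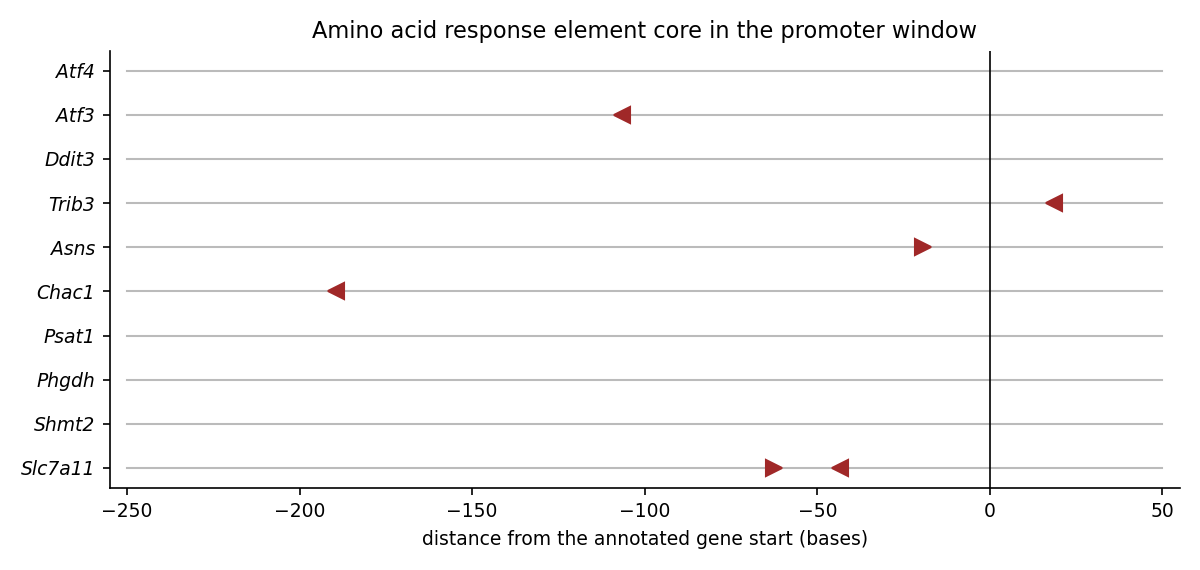
Position of each TGATGNAA match in the promoter windows of the 10 genes, in bases from the annotated gene start (vertical line). Arrowheads pointing right mark matches on the strand of the gene and arrowheads pointing left matches on the other strand; Slc7a11 has 2, Atf3, Trib3, Asns and Chac1 have 1 each, and the other genes have none.

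Some facts of the arrays bear on every value. Intensities are RMA values on a linear scale. The highest of 23 nonspecific control probe sets read 3.29 on the HIF-2a array, 2.29 on the HIF-1a array and 3.47 on the control array, and 3.47 was taken as the nonspecific level. Values recurred between probe sets: among those of at least 16, the share with a value also held by another probe set was 48.1% on the HIF-2a array, 56.0% on the HIF-1a array and 36.5% on the control array, so small differences are coarse. The 3′ minus 5′ log2 difference of the Gapdh control probe sets was 0.25, 0.25 and 0.22 in the same order, and that of the actin control probe sets was 0.60, 0.61 and 0.47. The 9 hybridisation control probe sets, which read bacterial and phage spike-in transcripts, were dimmer on the HIF-2a array, by a median log2 difference of −0.53 against control and −0.73 against HIF-1a, and their part in the results was not tested. Hif1a read 332.4 on both shRNA arrays and 352.1 on the control array, so it did not separate the hairpins, and the arrays are therefore named below by their labels. A hairpin named below is likewise the one that the label gives. Epas1, which encodes HIF-2a, read 3.21 on the HIF-2a-labelled array, 9.44 on the HIF-1a-labelled array and 5.09 on the control array. It was dim, under 16 on all 3 arrays, and its value on the HIF-2a-labelled array was under the nonspecific level. Of 11 mesenchymal progenitor markers on the array 10 passed the nonspecific level on at least 1 array. Among blood-cell markers 2 of 9 did, Cd14 and Cd68, no erythroid marker of 3 did, and of 7 endothelial markers only Egfl7 did. The summed level of the 9 blood-cell markers was 108.2 on the HIF-2a-labelled array, 98.6 on the HIF-1a-labelled array and 103.4 on the control array, and Ptprc, the defining marker of blood cells, stayed under the nonspecific level on all 3. Most of that sum was Cd14, at 93.2, 87.8 and 93.4 in the same order. The macrophage marker Cd68 read 7.24 on the HIF-2a-labelled array, and 3.02 and 1.59 on the HIF-1a-labelled and control arrays, both under the nonspecific level. The summed level of the 11 progenitor markers was 1476 on the HIF-2a-labelled array, 1786 on the HIF-1a-labelled array and 1676 on the control array. Single markers did not share this order. Among the 7 with a mean log2 of at least 4, 3 were higher, 1 equal and 3 lower for HIF-2a against control. For HIF-2a against HIF-1a, 1 was higher and 6 lower. Cd44, the brightest of them, read 576.5, 538.9 and 500.5 in the same order, and Prrx1 read 398.9, 490.2 and 419.2. Cxcl12, the niche chemokine and the only counted progenitor marker past 2-fold, read 72.3, 177.9 and 249.96 in that order, and Nt5e read 323.7, 457.6 and 407.1. Pdgfra read 47.9, 51.6 and 38.2, and Eng, on a probe set shared between transcripts, read 18.9, 19.4 and 16.2. Of 4 smooth muscle markers only Acta2, on a shared probe set, passed the nonspecific level, at 232.9, 428.7 and 373.6 in that order. The part of these differences in the results was not tested. In RNA from whole cultures, fewer cells of a type and less RNA per cell cannot be told apart.

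The 10 genes were all brightest on the HIF-2a-labelled array. Across the 5813 genes whose mean log2 intensity over the 3 arrays was at least 4, the HIF-2a-labelled array was the brightest for 41%. Of the 10 members 9 reached that minimum, and the exception was Atf3. Every member exceeded the nonspecific level on every array, and 3 of them, Atf4, Asns and Psat1, read at least 64 on all 3 arrays.

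**Figure D2:**
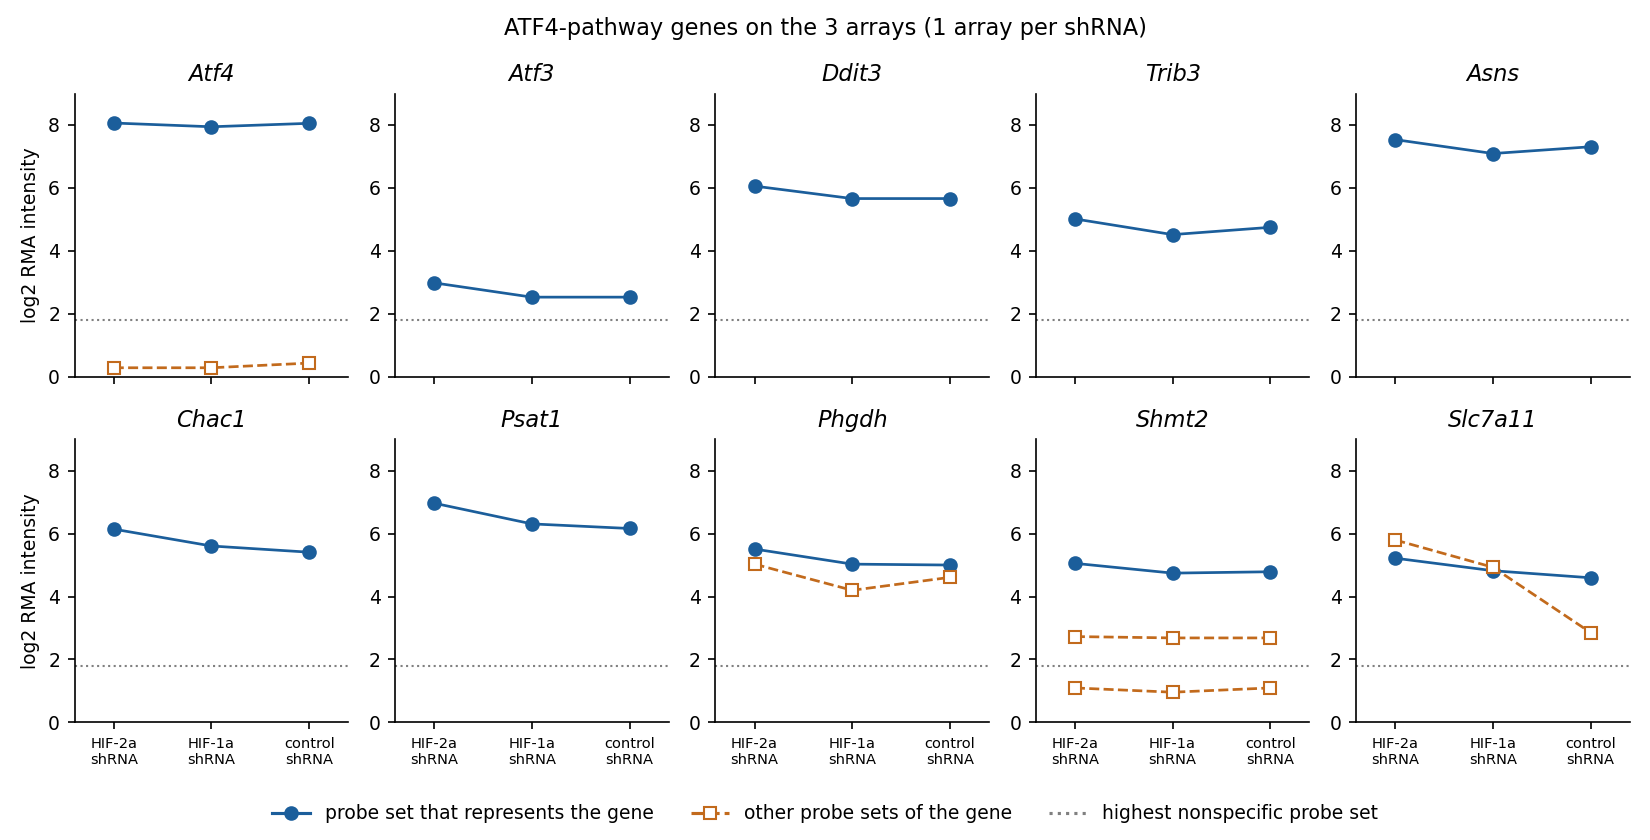
Log2 RMA intensity of each probe set of the 10 genes on the HIF-2a, HIF-1a and control shRNA arrays (1 array each). Filled circles mark the probe set that represents the gene, open squares its other probe sets, and the dotted line the highest nonspecific probe set (3.47 on the linear scale); every filled series is highest on the left.

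Among the transcription factors, Atf4 itself hardly differed. Atf4, the activator of the response, read 267.1 on the HIF-2a-labelled array, 246.0 on the HIF-1a-labelled array and 265.4 on the control array. Its log2 difference was 0.01 for HIF-2a against control, 0.12 for HIF-2a against HIF-1a and −0.11 for HIF-1a against control. The second Atf4 probe set stayed under the nonspecific level everywhere, at no more than 1.35, and gave no usable value.

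The stress-induced factors lay higher on the HIF-2a-labelled array alone. Ddit3, which encodes the death-promoting factor CHOP, read 66.5 on the HIF-2a-labelled array and 50.5 on each of the HIF-1a-labelled and control arrays, a 1.32-fold difference against either. Atf3, an early-response repressor that ATF4 induces, was dim and read 7.89 on the HIF-2a-labelled array and 5.76 on each of the others, which is 1.37-fold higher. For both genes the HIF-1a-labelled and control values were equal. Equal values are common on these arrays, so they do not show that the mRNA levels were the same.

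Trib3, a pseudokinase that ATF4 and CHOP induce and that restrains ATF4 in turn, was again highest with the HIF-2a hairpin. It read 32.3 on the HIF-2a-labelled array, 22.8 on the HIF-1a-labelled array and 26.8 on the control array. The HIF-1a-labelled array was thus the dimmest of the 3, with log2 differences of 0.50 for HIF-2a against HIF-1a, 0.27 for HIF-2a against control and −0.23 for HIF-1a against control.

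Enzymes of amino acid synthesis were all higher on the HIF-2a-labelled array than on either other array, to different degrees. Psat1, the transaminase of the serine pathway, read 125.3 on the HIF-2a-labelled array, 79.4 on the HIF-1a-labelled array and 71.7 on the control array. It was 1.75-fold higher than control and 1.58-fold higher than the HIF-1a-labelled array, the largest difference of the 10 genes in both comparisons by the representing probe sets. Phgdh, which commits a glycolytic intermediate to serine, read 45.6 on the HIF-2a-labelled array, 32.7 on the HIF-1a-labelled array and 32.05 on the control array, 1.42-fold higher than control.

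The second Phgdh probe set kept the HIF-2a-labelled array on top and separated the others more. It read 32.7 on the HIF-2a-labelled array, 18.4 on the HIF-1a-labelled array and 24.4 on the control array, with log2 differences of 0.83 for HIF-2a against HIF-1a and −0.41 for HIF-1a against control. Both Phgdh probe sets carry a suffix that marks probes shared between transcripts, as do the only probe sets of Psat1 and Trib3. Signal from several transcripts may therefore be included for these genes. The suffix is not the same for all: it is x or s for Phgdh, and a for Psat1 and Trib3.

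Asns and Shmt2 differed less. Asns, which makes asparagine from aspartate and glutamine, read 185.3 on the HIF-2a-labelled array, 136.4 on the HIF-1a-labelled array and 158.3 on the control array. As with Trib3, the HIF-1a-labelled value was the lowest, and the log2 differences were 0.44 for HIF-2a against HIF-1a, 0.23 for HIF-2a against control and −0.22 for HIF-1a against control. Shmt2, the mitochondrial enzyme that turns serine into glycine and loads folate, read 33.3 on the HIF-2a-labelled array, 26.8 on the HIF-1a-labelled array and 27.6 on the control array, a 1.20-fold difference from control. Its other probe sets were dim, with log2 differences of 0.04 and 0.00 for HIF-2a against control, and the second of these lay under the nonspecific level.

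Of the cystine and glutathione genes, Slc7a11 rested on the choice of probe set, whereas Chac1 offered no such choice. Chac1, a glutathione-degrading enzyme with 1 probe set, read 70.7 on the HIF-2a-labelled array, 48.8 on the HIF-1a-labelled array and 42.5 on the control array. It was 1.66-fold higher than control with the HIF-2a hairpin and 1.15-fold higher with the HIF-1a hairpin.

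Slc7a11 encodes the cystine importer xCT, and its 2 probe sets disagreed in size. By the probe set with the higher mean log2, it read 37.3 on the HIF-2a-labelled array, 28.3 on the HIF-1a-labelled array and 24.2 on the control array, which is 1.54-fold higher than control with the HIF-2a hairpin and 1.17-fold higher with the HIF-1a hairpin. By the other it read 55.7 on the HIF-2a-labelled array, 30.5 on the HIF-1a-labelled array and 7.23 on the control array, which is 7.70-fold and 4.22-fold higher than control in the same order. Both probe sets gave the same order of the arrays and both exceeded the nonspecific level throughout. Ranked by mean linear intensity in place of mean log2, the second probe set would represent the gene, at 31.1 against 29.9, and Slc7a11 would be the only member past 2-fold against control.

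The first comparison sets the HIF-2a-labelled array against control and concerns the HIF-2a hairpin under low oxygen. All 10 genes were above 0, with a median log2 difference of 0.43, whereas 60.4% of the 5813 genes counted were above 0 and their median was 0.07. For scale, the pooled SD between probe sets of a gene was 0.27 in this comparison. Atf4 at 0.01, Asns at 0.23, and Trib3 and Shmt2 at 0.27 did not exceed it. No member differed 2-fold by its representing probe set, against 3.63% of genes counted in either direction. At least 1.5-fold higher were 3 of the 10, Psat1, Chac1 and Slc7a11, against 9.94% of genes counted. The direction of this comparison depended on scaling. A shift of each array to a common 75th percentile left 4 members above 0, with the median of all genes counted at −0.43. Averaging all probe sets of a gene put Atf4 at −0.07.

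The comparison of the HIF-2a-labelled with the HIF-1a-labelled array leaves out the control array. Here too all 10 genes were above 0, with a median log2 difference of 0.45, against 44.3% of genes counted and a median of 0.00. By the representing probe sets, Psat1 alone was at least 1.5-fold higher, against 2.37% of genes counted. None differed 2-fold, against 1.36% in either direction. The differences were alike in size: apart from Atf4, the members lay between 0.31 for Shmt2 and 0.66 for Psat1. The difference of Shmt2 exceeded that of 90.6% of genes counted and that of Psat1 exceeded 98.3%, with the other members but Atf4 between them. All 10 stayed above 0 under each scaling and probe set choice that was run, with Atf4 at 0.02 after the 75th percentile shift. Adding an offset cannot change a sign, and a probe set choice cannot move a gene with 1 probe set, so those settings do not test the direction. For scale, probe sets of 1 gene differed from each other with a pooled SD of 0.16 in this comparison, over 1619 genes. That SD measures disagreement between probe sets and says nothing of the spread between arrays or cultures.

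The comparison of the HIF-1a-labelled array with control gave a mixed picture. Of the 10 genes 4 were above 0, 2 equal and 4 below, with a median of 0.00. Of the genes counted, 59.9% were above 0, 21.3% equal and 18.8% below, with a median of 0.05. By the representing probe sets none differed 2-fold, against 1.29% of genes counted in either direction, and none was 1.5-fold higher, against 4.82%. The other Slc7a11 probe set was 4.22-fold higher, and the second Phgdh probe set had a log2 difference of −0.41. The values of the representing probe sets ran from −0.23 for Trib3 to 0.22 for Slc7a11, close to the pooled SD of 0.19 between probe sets of a gene. Both cystine and glutathione genes and Psat1 and Phgdh were above 0, and Atf4, Trib3, Asns and Shmt2 below. Cyclic loess scaling left 3 above 0 and 7 below. The 75th percentile shift left 0 above and 10 below, with the median of all genes counted at −0.35. The comparisons share arrays with each other, so their values are not independent.

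**Figure D3:**
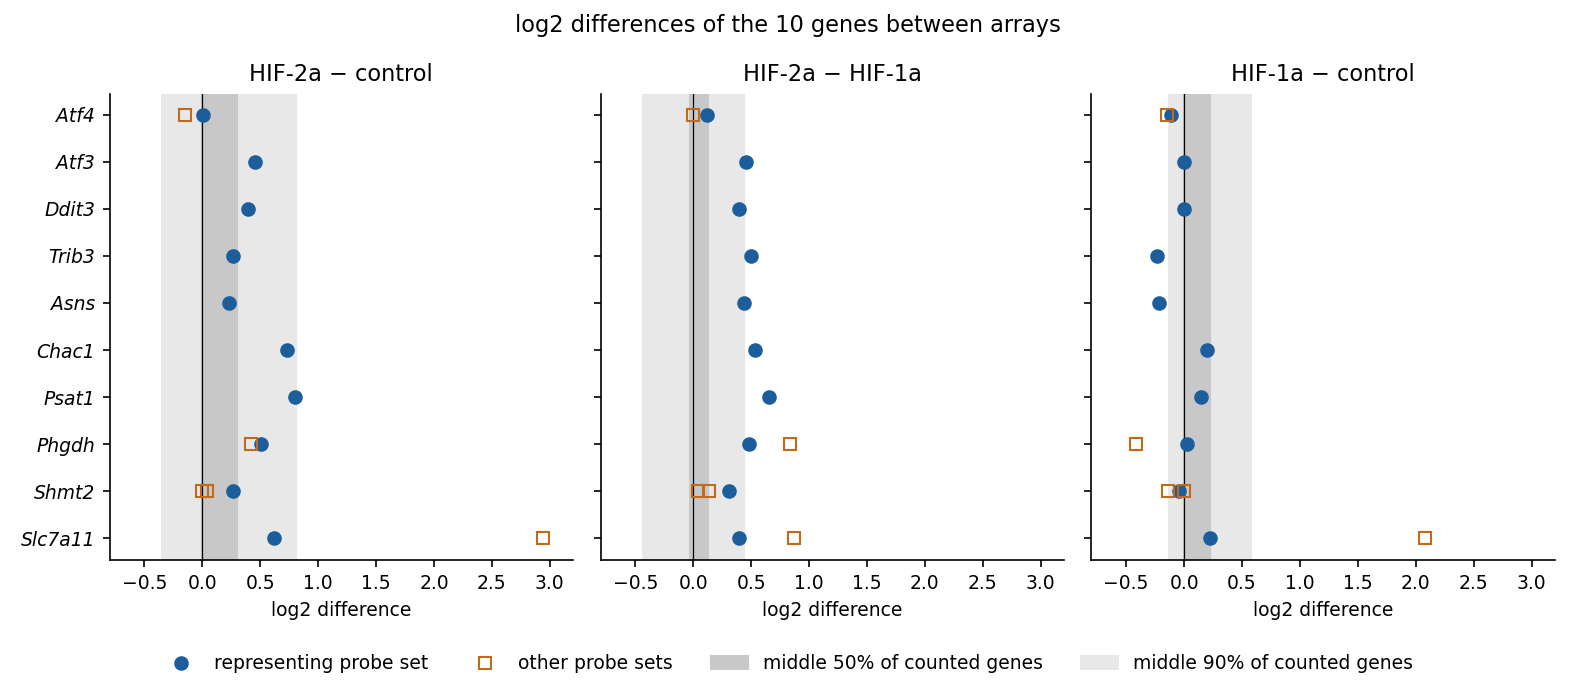
Log2 differences of the 10 genes for HIF-2a against control, HIF-2a against HIF-1a and HIF-1a against control. Filled circles are representing probe sets and open squares the other probe sets; dark and light bands span the middle 50% and 90% of the 5813 genes counted. All 10 circles lie right of 0 in the first and second panels, and the square far to the right is the second Slc7a11 probe set.

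The kinases that switch the response on behaved differently from one another. Eif2ak2, the interferon-inducible kinase PKR that senses double-stranded RNA, read 33.9 on the HIF-2a-labelled array, 35.5 on the HIF-1a-labelled array and 8.62 on the control array. It was 3.94-fold higher than control with the HIF-2a hairpin and 4.12-fold higher with the HIF-1a hairpin, with a log2 difference of −0.07 between the shRNA arrays. Eif2ak3, the endoplasmic reticulum kinase PERK, read 25.04 on the HIF-2a-labelled array, 35.7 on the HIF-1a-labelled array and 33.7 on the control array, lowest where the members were brightest.

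The other kinases were dim. Eif2ak1, the haem-regulated kinase, read 14.1 on the HIF-2a-labelled array, 12.0 on the HIF-1a-labelled array and 7.01 on the control array. Eif2ak4, the kinase GCN2 that senses uncharged tRNA, read 9.17 on both shRNA arrays and 6.36 on the control array. Eif2b1, Eif2b2 and Eif2b4, subunit genes of the exchange factor eIF2B, had log2 differences of 0.45 to 0.51 for HIF-2a against control. Over the 10 genes counted of this arm, 7 were above 0 and 3 below for HIF-2a against control, with a median of 0.32, and 5 were above 0, 1 equal and 4 below for HIF-2a against HIF-1a, with a median of 0.01.

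Partners of ATF4 gave no common direction. Of 11 leucine zipper and related regulators counted, 3 were above 0, 4 equal and 4 below for HIF-2a against control, with a median of 0.00. Cebpg, a dimer partner of ATF4, had a log2 difference of 0.28 for HIF-2a against control, whereas Cebpb was equal. Nupr1, a stress-induced chromatin protein often placed downstream of ATF4, read 223.9 on the HIF-2a-labelled array, 251.6 on the HIF-1a-labelled array and 324.8 on the control array, lowest where the members were brightest. Cebpd, a factor of the C/EBP family that inflammation induces, read 223.5 on the HIF-2a-labelled array, 290.6 on the HIF-1a-labelled array and 282.9 on the control array, also lowest with the HIF-2a hairpin.

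Serine and folate enzymes outside the 10 genes were divided. Psph, which completes serine synthesis after Phgdh and Psat1, read 44.6 on the HIF-2a-labelled array, 31.8 on the HIF-1a-labelled array and 33.7 on the control array. Its log2 difference of 0.49 for HIF-2a against HIF-1a lay among those of the members. Mthfd1, a cytosolic folate enzyme, had one of 0.35. Aldh1l2, a mitochondrial folate enzyme, went the other way and read 71.9 on the HIF-2a-labelled array, 82.7 on the HIF-1a-labelled array and 96.3 on the control array. Of the 5 counted genes of this group 3 were above 0 and 2 below in both comparisons of the HIF-2a-labelled array. Tyms, which makes thymidylate with folate, had a difference of 0.13 for HIF-2a against control. Other enzymes of amino acid synthesis had 2 counted genes, with a median of −0.05 for HIF-2a against control. Pck2, the mitochondrial enzyme that makes phosphoenolpyruvate, had a difference of −0.18, and Bcat1, a transaminase of branched-chain amino acids, one of 0.09.

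Some amino acid transporters were brightest on the HIF-2a-labelled array. Slc3a2, the heavy chain that xCT needs at the membrane, read 207.3 on the HIF-2a-labelled array, 170.5 on the HIF-1a-labelled array and 145.7 on the control array. Slc7a5, the leucine transporter that shares this heavy chain, read 41.4 on the HIF-2a-labelled array, 24.99 on the HIF-1a-labelled array and 28.04 on the control array. Slc7a1, a carrier of cationic amino acids, read 85.2 on the HIF-2a-labelled array, 63.3 on the HIF-1a-labelled array and 57.0 on the control array. These 3 had log2 differences of 0.51 to 0.58 for HIF-2a against control, while Slc38a2, a glutamine carrier also induced by amino acid shortage, had one of −0.15. Of the 5 counted transporters 3 were above 0 and 2 below, with a median of 0.51, a share above 0 close to the 60.4% of all genes counted.

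Genes for cytosolic aminoacyl-tRNA synthetases, which charge tRNAs with amino acids, were mostly higher with the HIF-2a hairpin. Of 16 counted, 14 were above 0 and 2 below for HIF-2a against control, with a median of 0.26, and 14 were above 0, 1 equal and 1 below for HIF-2a against HIF-1a, with a median of 0.17. Of all genes counted, 60.4% were above 0 in the first comparison, with a median of 0.07, and 44.3% in the second, with a median of 0.00. The arginine enzyme gene Rars read 186.4 on the HIF-2a-labelled array, 143.1 on the HIF-1a-labelled array and 145.7 on the control array. The lysine enzyme gene Kars had a log2 difference of 0.49 for HIF-2a against control and 0.36 for HIF-1a against control. Farsa and Farsb, the subunit genes of the phenylalanine enzyme, had differences of 0.52 and 0.41 for HIF-2a against control.

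Other targets and stress mediators were spread around 0. Of 11 counted, 1 of which is a synthetase gene also in the group above, 6 were above 0 and 5 below for HIF-2a against control, with a median of 0.05. Stc2, a secreted glycoprotein induced by the response, had a difference of 0.43 for HIF-2a against control. Sesn2, a leucine-sensing inhibitor of growth signalling, had one of −0.20 for HIF-2a against control and −0.43 for HIF-1a against control. Rnf187, a ubiquitin ligase gene, had one of 0.26 for HIF-2a against control. Bcl2l11, which encodes the death-promoting protein BIM, had one of −0.43 for HIF-2a against control. Pmaip1, which encodes the death-promoting protein NOXA and was picked after its values were seen, lay under the minimum and read 27.9 on the HIF-2a-labelled array, 7.98 on the HIF-1a-labelled array and 10.9 on the control array.

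Genes of the other arms of the unfolded protein response, driven by ATF6 and XBP1, lay on the other side of 0 from the members. Of 16 counted, 3 were above 0, 1 equal and 12 below for HIF-2a against control, with a median of −0.19, and 1 was above 0, 3 equal and 12 below for HIF-2a against HIF-1a, with a median of −0.21. Of all genes counted, 16.3% were equal and 23.3% below 0 for HIF-2a against control, and 27.2% equal and 28.4% below for HIF-2a against HIF-1a. Sdf2l1, a chaperone cofactor, read 44.3 on the HIF-2a-labelled array, 83.9 on the HIF-1a-labelled array and 59.3 on the control array. Creld2, a secreted stress protein, read 84.0 on the HIF-2a-labelled array, 141.1 on the HIF-1a-labelled array and 111.8 on the control array. Pdia4, a disulphide isomerase, had a difference of −0.61 for HIF-2a against control. Edem1, which routes misfolded glycoproteins to degradation, was the exception above 0 in both comparisons, at 87.6 on the HIF-2a-labelled array, 72.9 on the HIF-1a-labelled array and 53.0 on the control array. The difference between the members and this group was not tested.

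**Figure D4:**
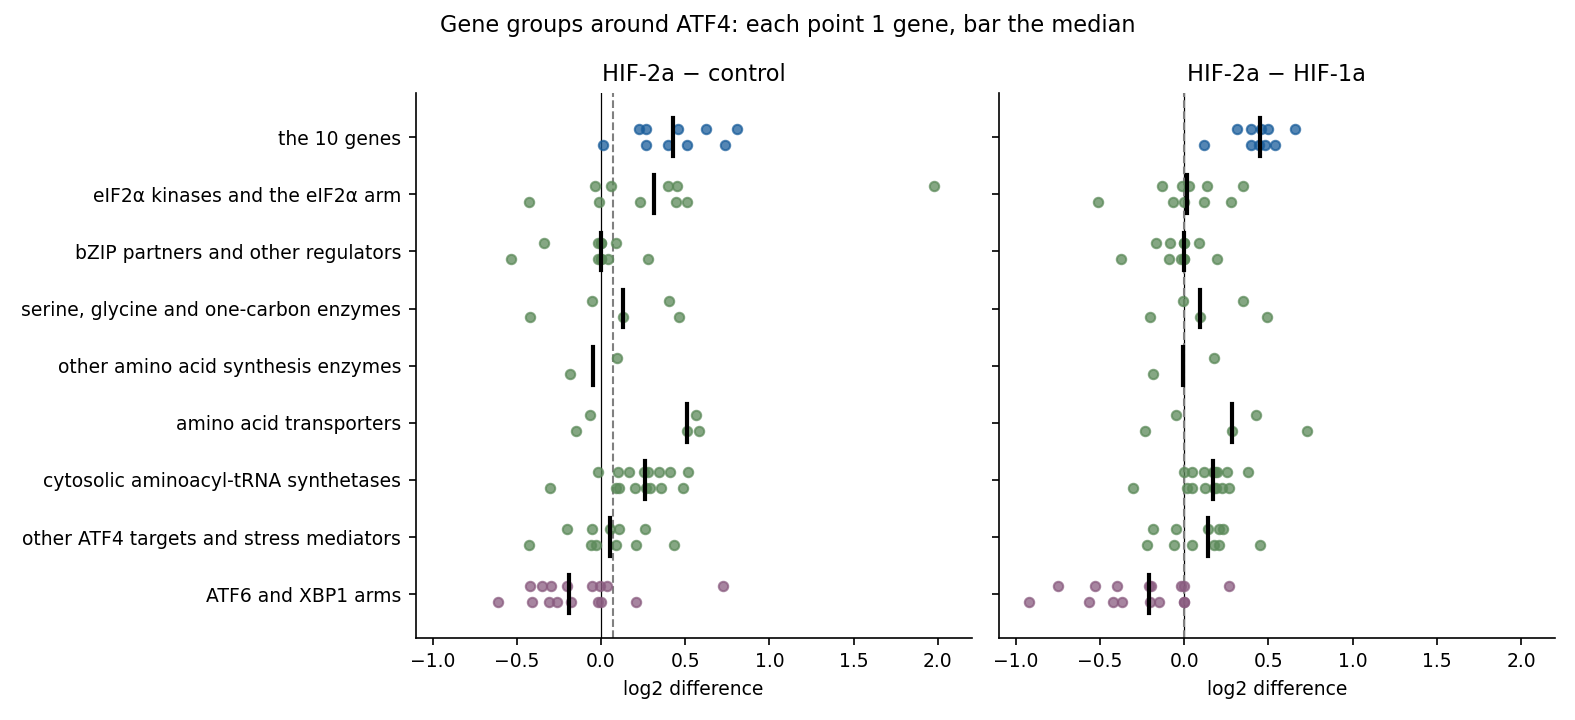
Log2 differences of single genes (points) and medians (bars) for HIF-2a against control and HIF-2a against HIF-1a, for the 10 genes and for the counted genes of 8 related groups. The dashed line is the median of all 5813 genes counted; the 10 genes have medians of 0.43 and 0.45 and the ATF6 and XBP1 group medians of −0.19 and −0.21.

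Other genes with the core of the response element lay close to all genes counted. Because a match does not show that a factor bound, this comparison cannot tell whether the element acts on a gene. Outside the 10 members, 123 counted genes held TGATGNAA in a promoter window. Their median log2 difference was 0.07 for HIF-2a against control and 0.00 for HIF-2a against HIF-1a, the same to 2 decimals as the medians of all genes counted, and 60.2% and 44.7% of them were above 0. For the 31 such genes with TGATGCAA the medians were 0.02 and 0.00, and 54.8% and 35.5% of them were above 0. Among the members, those with the core ranged from 0.23 (Asns) to 0.73 (Chac1) and those without it from 0.01 (Atf4) to 0.80 (Psat1) for HIF-2a against control, so the ranges overlapped.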

How the data were processed

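Total RNA, 1 µg per array, was biotin-labelled by the Affymetrix protocol, per the labels' protocols. The authors deposited 1 table of RMA intensity values for 3 arrays; per the submitters' processing notes the method was RMA, whose version and settings the sources used here do not give. The values are linear, as their range shows (0.63 to 1747), and log2 was taken with no further scaling. Arrays were assigned to shRNAs from their titles, with 1 array in each of 3 groups, so no test was run and the precision is limited by how few arrays there are.

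Probe sets were named from the platform annotation: 28898 had 1 gene, 551 had several and were left out, and 15588 others were not listed and stay unnamed. Symbols were updated by Entrez identifier through the RefSeq gene table of GRCm38.p6, which also gave the promoter sequences. Each gene took the probe set with the highest mean log2. Genes with a mean log2 of at least 4 (16 on the linear scale) were counted, and differences within 1e-06 were called equal. Named genes outside the 10 are, from each group, up to 4 counted genes with the largest difference of either shRNA array from control, with Psph, Slc3a2 and the eIF2α kinases always, and Hif1a and Epas1 as a check. Marker genes named beside the array facts, and Pmaip1, fall partly outside this rule. The members and gene groups were chosen with earlier results of these data known. Alternatives covered scaling (cyclic loess in limma 3.58.1 under R 4.3.3, and a 75th percentile shift), an offset of 32, probe set choice, minimum and fold. Counting used Python 3.11.15 with pandas 2.3.3 and was tested on simulated data.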

Additional observations from a re-analysis of the deposited data

How the results depend on the processing

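With 1 array per group no replicate could be left out. No paired analysis was possible because each group holds 1 array. Of 150 values of single members under the alternatives, 113 moved by less than the pooled SD between probe sets and 37 by more. Among the 37 are all 10 members after the 75th percentile shift, in each of the comparisons with control. That shift moves every gene of a comparison by the same amount. Only 4 of the 10 members had over 1 probe set. For the others a change of probe set choice could not move the value, and these unmoved values are among the 113. After the 75th percentile shift the medians of all genes counted were −0.43 (HIF-2a against control), −0.35 (HIF-1a against control) and −0.10 (HIF-2a against HIF-1a). The shift took the members' median to −0.081 for HIF-2a against control and −0.41 for HIF-1a against control. Relative to all genes these are 0.35 and −0.05, as before the shift. That could not be otherwise, because the shift takes the same constant from every gene of a comparison. For HIF-2a against control, the members' median relative to all genes was 0.25 after cyclic loess and 0.18 with the offset. With 32 added before log2, the members' median for HIF-2a against HIF-1a was 0.24, because an offset compresses dim genes. The choice by linear mean, made after seeing the data, and the mean of all probe sets moved Slc7a11 to 2.94 and 1.78 for HIF-2a against control. For HIF-1a against control they moved Slc7a11 to 2.08 and 1.15 in the same order.

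Counts of all genes at least 2-fold apart were 211 for HIF-2a against control, 79 for HIF-2a against HIF-1a and 75 for HIF-1a against control. In the same order they were 1023, 218 and 603 with no minimum, 69, 46 and 29 with a minimum of 64 on at least 1 array, 37, 15 and 17 with the offset, and 693, 310 and 291 at 1.5-fold. For HIF-1a against control the percentile shift gave 44. The split for HIF-2a against control was 175 higher and 36 lower as deposited, 110 and 51 after cyclic loess, and 62 and 154 after the percentile shift. For HIF-2a against HIF-1a it was 30 higher and 49 lower, 27 and 52, and 23 and 64 in the same order. For HIF-1a against control it was 71 and 4, 51 and 4, and 34 and 10.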
